A study of Mus musculus with 11 samples.

Results

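Neuropeptide precursor genes were followed in RNA sequencing of mouse spinal cord and mouse fetal fibroblasts. The 10 genes are Penk, Pdyn, Npy, Vip, Cck, Sst, Tac1, Calca, Gal and Grp, out of the 55487 Ensembl gene identifiers in the deposited table, taken by their symbols. Animals were C57BL/6 mice, either S87L or wild-type (WT). The S87L mice carried 1 p.S87L allele of Morc2a, in which leucine replaces serine within the ATPase domain of this chromatin protein, and so were heterozygous. The 4 groups were S87L spinal cord (3 libraries), WT spinal cord (3 libraries), S87L fetal fibroblasts (MEF, 2 libraries) and WT MEF (3 libraries). The labels name no treatment, transgene or Cre, and give no age or sex. Values are FPKM, fragments scaled to gene length and to a read total. The length that matched the values spans all annotated exons of a gene, from 566 bases for Npy to 3402 for Vip. Levels set side by side between genes depend on that length, which may understate genes with several transcripts.

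Neuropeptides are made as long precursor proteins that enter the secretory pathway. Prohormone convertases cut the precursors at basic residues, carboxypeptidase E trims the ends, and the peptides are released from dense-core vesicles. In the dorsal horn of the spinal cord they mark classes of excitatory and inhibitory interneurons and primary afferents and tune pain, itch and touch, while others act in autonomic and motor neurons.

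In S87L cord, 5 of the 10 precursors were lower than in WT cord and none was called higher. Vip fell most, by 41.8% on mean FPKM, and Penk, Pdyn, Npy and Cck were lower by 18.1% to 22.5%. Sst, Tac1, Calca, Gal and Grp did not pass the test. Over all 15648 genes tested in cord, 7.71% were called lower, 5.17% higher and 12.9% in either direction (limma, Benjamini-Hochberg adjusted p under 0.05). In MEF, Penk was lower by 53.5%, and the fall in Penk was larger there than in cord. Bulk tissue was sequenced, so fewer cells of a type and less RNA per cell cannot be told apart.

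Recovered sequencing depth was 19.4 to 23.53 M reads in S87L cord, 15.35 to 18.97 M in WT cord, 12.08 to 14.47 M in S87L MEF and 14.29 to 15.05 M in WT MEF. Summed FPKM of 10 pan-neuronal genes was 1935 to 1981 in S87L cord and 2006 to 2025 in WT cord, against 38.5 to 42.4 in S87L MEF and 32.8 to 34.6 in WT MEF. A list of 13 meningeal and fibroblast genes summed to 3353 to 3621 FPKM in S87L MEF and 3880 to 3900 in WT MEF. Whether the libraries within a group are separate animals or cultures is not stated in the labels. All p-values are therefore about library-to-library spread here, part of which may be technical.

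**Figure D1:**
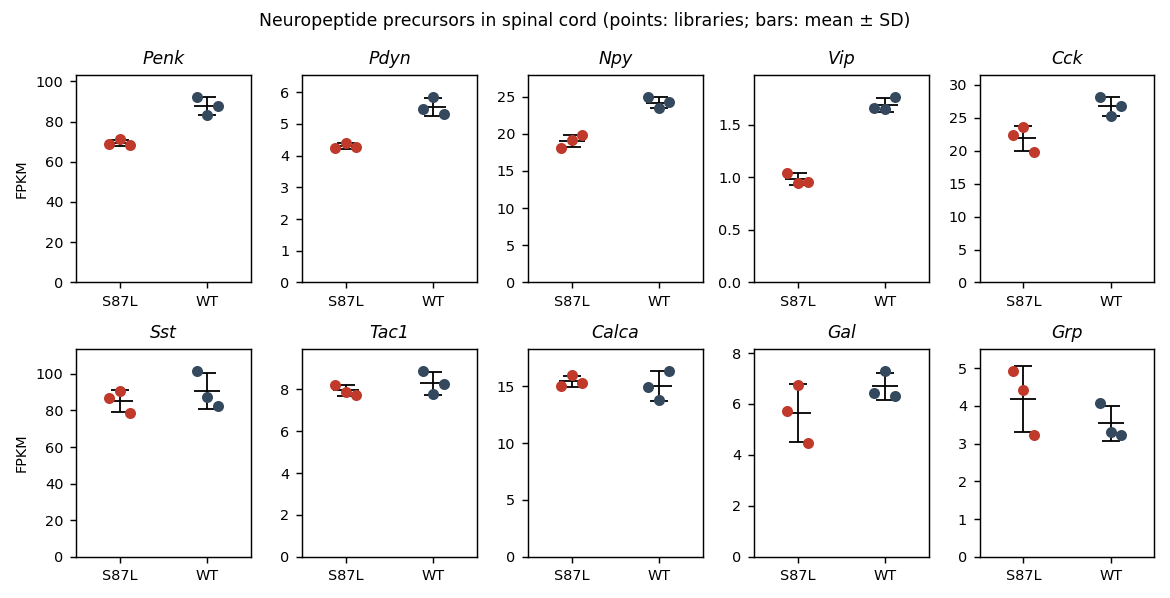
FPKM of the 10 precursors in spinal cord, 1 panel per gene, with S87L left of WT; points are libraries and bars are the mean ± SD (n = 3 each). The points of the groups do not overlap for Penk, Pdyn, Npy, Vip and Cck, and they overlap for the other 5 genes.

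The opioid precursors Penk and Pdyn were both lower. Penk (chromosome 4, 4133531 to 4138819, minus strand, GRCm38) encodes proenkephalin, the source of the enkephalins, which act mainly on delta and mu opioid receptors. Its level was 69.0, 71.2 and 68.2 FPKM in the S87L cord libraries, against 92.3, 83.2 and 87.8 FPKM in the WT cord libraries. Every S87L library lay below every WT library, with a log2 fold change of -0.33 (SE 0.04, 95% confidence interval -0.44 to -0.23, limma adjusted p = 0.00447). Here and below, folds are S87L over WT on the log2(FPKM + 0.5) scale, which understates the change of low genes. Depth was higher in S87L, so similar read totals, 6945 in S87L and 6843 in WT, stood over a scaling total of 61.1 M reads in S87L and 47.5 M in WT.

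Pdyn (chromosome 2, 129686565 to 129699844, minus strand) encodes prodynorphin, whose peptides act on the kappa opioid receptor and which marks inhibitory dorsal horn neurons. It was at 4.22, 4.39 and 4.27 FPKM in S87L cord, against 5.47, 5.85 and 5.30 FPKM in WT cord, again with no overlap. Its log2 fold change was -0.33 (SE 0.05, adjusted p = 0.00840). Penk was 16.0 to 16.3 times the level of Pdyn within each S87L library and 14.2 to 16.9 times within each WT library. These ranges overlap, so the balance of the 2 opioid precursors did not separate the genotypes.

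Npy, Vip and Cck encode peptides outside the opioid family. Npy (chromosome 6, 49822710 to 49829507, plus strand) encodes neuropeptide Y, a marker of inhibitory dorsal horn interneurons. It stood at 18.1, 19.2 and 19.8 FPKM in S87L cord and at 25.0, 23.4 and 24.3 FPKM in WT cord. The groups did not overlap, and the log2 fold change was -0.34 (SE 0.05, adjusted p = 0.00488).

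Vip (chromosome 10, 5639218 to 5647617, plus strand) encodes the precursor of vasoactive intestinal peptide, which relaxes smooth muscle and is also found in sensory and autonomic pathways. It had the lowest FPKM of the 10 genes in both genotypes, with 1.05, 0.945 and 0.960 in S87L cord and 1.66, 1.65 and 1.77 in WT cord. These values rest on 61 to 73 reads per S87L library and 83 to 102 reads per WT library. No S87L library reached a WT library. That gave a log2 fold change of -0.56 (SE 0.07, 95% interval -0.73 to -0.39, adjusted p = 0.00431). On summed reads the ratio of S87L to WT was 0.582, with an exact 95% interval of 0.483 to 0.700 that covers counting error only.

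Cck (chromosome 9, 121489824 to 121495694, minus strand) encodes the cholecystokinin precursor, expressed by excitatory interneurons of the deep dorsal horn. Its level was 22.3, 23.6 and 19.8 FPKM in S87L cord, against 28.2, 25.2 and 26.8 FPKM in WT cord. The highest S87L library lay below the lowest WT library. Cck had the weakest call of the 5, a log2 fold change of -0.28 (SE 0.07, adjusted p = 0.0405). The call was lost without any library other than S87L replicate 2, up to an adjusted p of 0.107 without WT replicate 3. It was also lost with no filter on low values (adjusted p = 0.0912) and with a replicate block. For Vip, Penk, Npy and Pdyn the call held without each of the 6 libraries and under all 8 other settings.

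Promoter sequence was printed for 3 genes that were lower in S87L cord, Vip, Cck and Npy, and for Sst, which was not called and holds the full cAMP response element, the binding site of the transcription factor CREB. Of the 10 genes, 8 had a promoter in the RefSeq table of GRCm38.p6, and Penk and Grp had none there. Each line gives the 150 bases before the RefSeq start, 5′ to 3′ on the gene's strand. Capitals mark a match to TGACG on either strand, or to the palindrome TGACGTCA, which holds TGACG on both strands.
Vip, chr10:5639068-5639217, plus strand: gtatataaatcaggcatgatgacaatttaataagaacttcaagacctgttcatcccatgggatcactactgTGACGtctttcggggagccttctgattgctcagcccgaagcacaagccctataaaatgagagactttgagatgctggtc
Cck, chr9:121495695-121495844, minus strand: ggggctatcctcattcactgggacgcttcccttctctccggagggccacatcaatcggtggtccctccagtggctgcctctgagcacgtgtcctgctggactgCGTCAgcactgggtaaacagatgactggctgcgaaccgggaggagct
Npy, chr6:49822560-49822709, plus strand: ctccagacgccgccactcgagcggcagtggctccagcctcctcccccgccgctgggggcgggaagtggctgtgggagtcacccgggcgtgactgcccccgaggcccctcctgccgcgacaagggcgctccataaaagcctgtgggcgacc
Sst, chr16:23890845-23890994, minus strand: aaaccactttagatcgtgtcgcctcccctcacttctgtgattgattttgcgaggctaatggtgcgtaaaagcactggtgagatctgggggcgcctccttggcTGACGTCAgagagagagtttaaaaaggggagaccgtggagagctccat
Counting back from -1 at the base just before the start, the match begins at -79 in Vip, -47 in Cck and -48 in Sst. TGACG was found before the start of 5 of the 8 genes, Vip, Cck, Sst, Tac1 and Calca. It was in no window of Npy, Gal or Pdyn, of which Pdyn had 2 RefSeq starts. Over 32851 RefSeq promoters cut to the same length, 13.3% held TGACG and 1.36% held the palindrome. Genes with the match were called lower (Vip, Cck) or not called (Sst, Tac1, Calca), and genes without it were likewise called lower (Npy, Pdyn) or not called (Gal). A match describes letters in this window and shows no binding.

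The other 5 precursors did not pass the test in cord. Sst (chromosome 16, 23889573 to 23890958, minus strand) encodes somatostatin, an inhibitory peptide made here largely by excitatory dorsal horn interneurons. It was at 86.7, 90.5 and 78.8 FPKM in S87L cord and at 102, 87.2 and 82.6 FPKM in WT cord, so the groups overlapped. The log2 fold change was -0.08 (SE 0.08, 95% interval -0.27 to 0.11, adjusted p = 0.573). Without WT replicate 1, the highest library, it was 0.0058 and so changed sign.

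Tac1 (chromosome 6, 7554879 to 7565834, plus strand) encodes preprotachykinin, the source of substance P and neurokinin A. Its level was 8.22, 7.89 and 7.74 FPKM in S87L cord, against 8.87, 7.78 and 8.26 FPKM in WT cord. The ranges overlapped, and the log2 fold change was -0.06 (SE 0.06, 95% interval -0.19 to 0.07, adjusted p = 0.549).

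Calca (chromosome 7, 114631478 to 114636357, minus strand) makes calcitonin or calcitonin gene-related peptide by alternative splicing, and one gene total cannot tell these products apart. In the cord itself, motor neurons express it. It was at 15.0, 16.0 and 15.3 FPKM in S87L cord, against 15.0, 13.8 and 16.3 FPKM in WT cord, with all S87L values inside the WT range. Its fold was 0.04 on the log2 scale (SE 0.06, 95% interval -0.11 to 0.19, adjusted p = 0.723), and -0.02 without WT replicate 2.

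Gal (chromosome 19, 3409915 to 3414544, minus strand) encodes galanin, found in inhibitory dorsal horn neurons and raised in sensory neurons by axon injury. Its values spread most among S87L libraries, at 5.74, 6.76 and 4.49 FPKM, against 6.45, 7.29 and 6.33 FPKM in WT cord. The log2 fold change was -0.24 (SE 0.13, 95% interval -0.54 to 0.07, adjusted p = 0.278). An interval this wide includes the falls of Penk, Pdyn, Npy and Cck.

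Grp encodes gastrin-releasing peptide, used by dorsal horn interneurons that relay itch. It was at 4.92, 4.41 and 3.23 FPKM in S87L cord and at 4.08, 3.30 and 3.24 FPKM in WT cord. The libraries of the genotypes interleaved. With a log2 fold change of 0.20 (SE 0.14, 95% interval -0.13 to 0.54, adjusted p = 0.399), Grp had the highest fold of the 10, and it was not called.

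**Figure D2:**
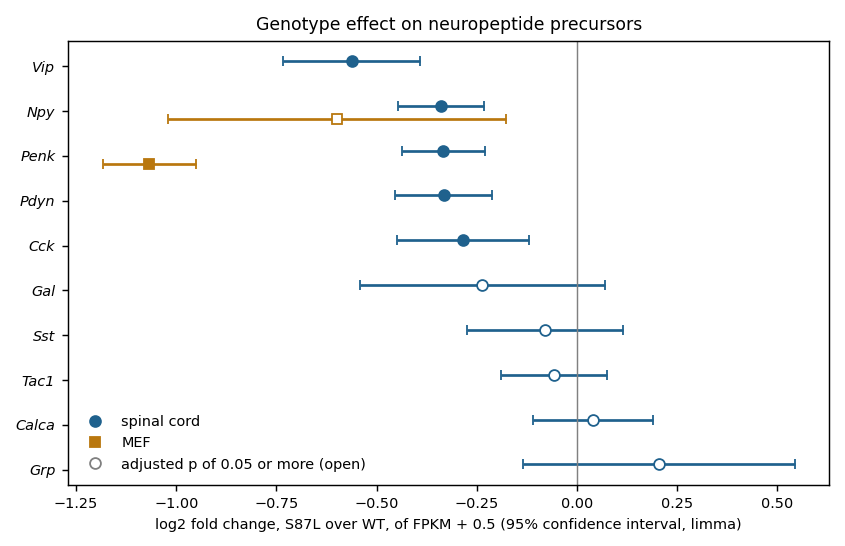
Log2 fold change of each precursor, S87L over WT, with its 95% confidence interval, in spinal cord (circles) and, for the 2 genes that passed the filter there, in MEF (squares); filled symbols had an adjusted p under 0.05. In cord the filled symbols are Vip, Npy, Penk, Pdyn and Cck, with intervals wholly below 0, and Penk in MEF lies at -1.07.

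Set in order of FPKM, which depends on annotated exon length, the precursors spanned 53.5-fold in WT cord. The S87L means were 85.4 FPKM for Sst, 69.5 for Penk, 21.9 for Cck, 19.0 for Npy, 15.4 for Calca, 7.95 for Tac1, 5.66 for Gal, 4.29 for Pdyn, 4.19 for Grp and 0.984 for Vip. The WT means ran in the same order, at 90.4 FPKM for Sst, 87.8 for Penk, 26.7 for Cck, 24.2 for Npy, 15.0 for Calca, 8.30 for Tac1, 6.69 for Gal, 5.54 for Pdyn, 3.54 for Grp and 1.69 for Vip. In S87L the neighbours Cck and Npy, and Pdyn and Grp, overlapped, and in WT only Sst and Penk did. Sst was 1.26, 1.27 and 1.16 times Penk in the S87L libraries, against 1.10, 1.05 and 0.941 times Penk in the WT libraries. Tac1 was 0.111 to 0.119 times Penk in S87L and 0.0935 to 0.0961 times Penk in WT, also without overlap. Penk divides both ratios and was itself lower, while Sst and Tac1 were not called, so these ratios are no separate result. Together the 10 genes summed to 234.2 ± 11.2 FPKM in S87L cord and 269.9 ± 16.2 FPKM in WT cord (SD, n = 3 each), and Sst with Penk made up 66.0% to 66.2% of that sum in S87L and 64.9% to 67.2% in WT.

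Read against all genes, the median log2 fold change of the 10 precursors was -0.26, beside -0.02 over all 15648 genes tested. The precursors were chosen with earlier results of these data known, so this comparison and the next are descriptive only. The S87L libraries lay wholly below the WT libraries for 5 of the 10, and for 21.3% of all genes tested. The split of all calls depended on scaling, with 809 higher and 1207 lower as deposited and 1230 higher and 874 lower under median ratio scaling. The falls of Vip, Penk, Npy, Pdyn and Cck were called under both scalings.

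Other transcripts moved with genotype in the same cord libraries, and their part in the precursor results was not tested. The shares called over all genes tested in cord were 7.71% lower and 5.17% higher. All 6 tested caudal Hox genes, of 10 listed, fell, with a summed level of 34.9 to 38.9 FPKM in S87L and 69.0 to 75.8 FPKM in WT. Skeletal muscle genes rose in 14 of 15, with a list median log2 fold change of 1.67. The list summed to 224.5 to 231.1 FPKM in S87L and 146.9 to 160.5 FPKM in WT. Most of that sum was Pvalb, which was not called, at 132.5 FPKM in S87L and 131.1 FPKM in WT. Meningeal and fibroblast genes rose in 8 of 12 tested, with a median log2 fold change of 0.51. Their sum was 453.8 to 482.8 FPKM in S87L and 342 to 366.2 in WT, most of it Ptgds (406.7 FPKM in S87L, 319.3 in WT). Microglial genes rose in 8 of 12 (379.3 to 390.2 FPKM in S87L, 295.7 to 317.2 in WT). Among the listed genes of muscle, meninges and microglia none was at 0 throughout a cord group, while the Hox genes Hoxa11, Hoxc11 and Hoxd11 were at 0 in all 6 cord libraries. Neuronal lists moved less, with a median log2 fold change of -0.04 for 10 pan-neuronal genes (2 lower), -0.11 for 11 dorsal horn excitatory markers (1 lower), -0.02 for 11 inhibitory markers (1 lower) and 0.02 for 10 motor and cholinergic genes (none called). The excitatory markers summed to 95.92 to 97.98 FPKM in S87L and 104.5 to 107 in WT, without overlap. Sums overlapped for the inhibitory markers (237.6 to 249.8 FPKM in S87L, 246.2 to 253.4 in WT). They also overlapped for the motor and cholinergic genes (136.5 to 149.1 FPKM in S87L, 136.5 to 143.7 in WT). The called markers were the neurofilament gene Nefm (-0.13, adjusted p = 0.0338), the synaptotagmin Syt1 (-0.22, adjusted p = 0.0443), the synapse organiser Cbln2 (-0.30, adjusted p = 0.0133) and the GABA synthesis enzyme Gad1 (-0.16, adjusted p = 0.0192), each by limma. Leaving out at least 1 library ended each of these 4 calls. Of 3 tested markers of neurons that contact the cerebrospinal fluid, the channel gene Pkd2l1 was lower, at 2.49 ± 0.24 FPKM in S87L and 3.73 ± 0.27 FPKM in WT (SD, n = 3 each; log2 fold change -0.50, limma adjusted p = 0.00849). That call held without each library. The other tested markers, Gata2 (-0.12, limma adjusted p = 0.5455) and Tal1 (0.06, limma adjusted p = 0.6883), were not called.

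Of 42 further precursor genes listed, 17 were tested in cord, 2 fell and none rose, with a median log2 fold change of -0.06. The share called lower over all genes tested in cord was 7.71%. Tac2, which encodes neurokinin B, averaged 18.8 ± 1.0 FPKM in S87L and 26.4 ± 2.4 FPKM in WT (SD, n = 3 each; log2 fold change -0.48, limma adjusted p = 0.00715). Cartpt, the precursor of the CART peptides, averaged 9.29 ± 1.42 FPKM in S87L and 14.9 ± 1.6 FPKM in WT (log2 fold change -0.66, limma adjusted p = 0.0144, SD over n = 3 each). The Cartpt call was lost without WT replicate 1 or 3, up to an adjusted p of 0.0569, and the Tac2 call held without each library. The urocortin gene Ucn3 and Pomc, the precursor of beta-endorphin, were at -0.39 and -0.36 and were not called (adjusted p = 0.101 and 0.119).

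**Figure D3:**
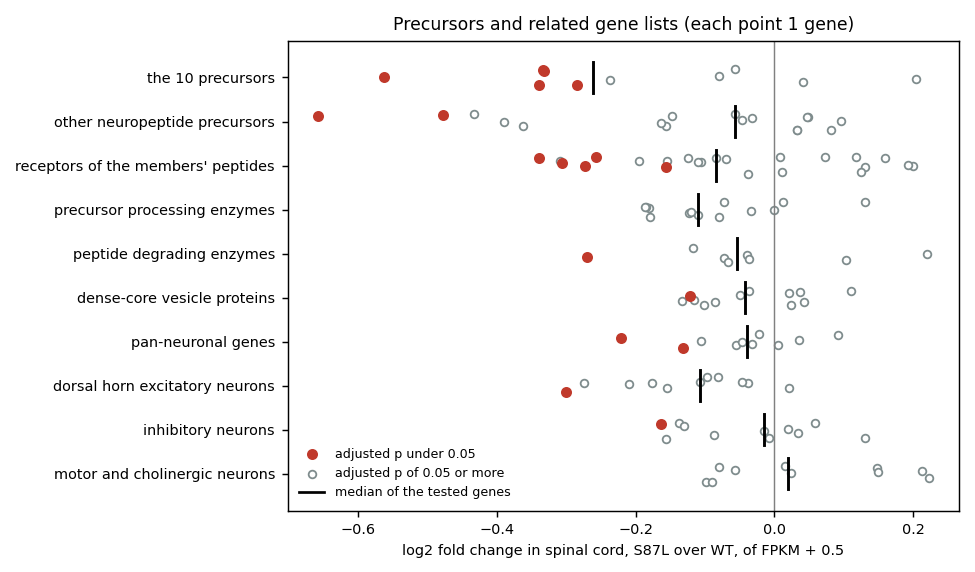
Log2 fold change in spinal cord, S87L over WT, of each tested gene (points) of the 10 precursors and of 9 related lists, with the median of each list as a black bar. The precursor median lies at -0.26 and the medians of the related lists between -0.11 and 0.02. Precursors and lists were chosen with earlier results of these data known.

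Receptors for the peptides of these precursors were also tested in cord. Of 23 receptors and accessory proteins tested, 5 were called lower and none higher, with a median log2 fold change of -0.08. Over all genes tested in cord, 7.71% were called lower and 5.17% higher. The kappa opioid receptor Oprk1, bound by dynorphins, averaged 1.41 ± 0.11 FPKM in S87L and 1.86 ± 0.07 FPKM in WT (log2 fold change -0.31, SD over n = 3 each, limma adjusted p = 0.0346). The delta opioid receptor Oprd1, bound by enkephalins, averaged 3.22 ± 0.21 FPKM in S87L and 3.94 ± 0.15 FPKM in WT (-0.26, n = 3 each, limma adjusted p = 0.0346). Lower too were the substance P receptor Tacr1 (-0.27, adjusted p = 0.0409), the calcitonin family accessory protein Ramp3 (-0.34, adjusted p = 0.0355) and Adcyap1r1, a receptor for PACAP that VIP binds weakly (-0.16, adjusted p = 0.0211). None of the 5 calls held without every library in turn, and those of Oprk1 and Oprd1 were lost without any of the 6. The mu opioid receptor Oprm1 was at 0.07 (adjusted p = 0.645).

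Genes that make, store or degrade the peptides are counted here beside the share over all genes. In cord, 12.9% of all genes tested were called, 7.71% lower and 5.17% higher. None of 13 processing genes was called in cord, where the list median was -0.11. Closest were the prohormone convertases Pcsk1 (9.15 ± 0.13 FPKM in S87L, 10.5 ± 0.85 in WT, SD over n = 3 each; limma adjusted p = 0.0945), Pcsk7 (adjusted p = 0.123) and Pcsk2 (adjusted p = 0.123). Carboxypeptidase E, encoded by Cpe, was at 0.01 (adjusted p = 0.782). Of 12 tested dense-core vesicle genes the granin Scg2 alone was called, at -0.12 (adjusted p = 0.0400), and it was lost without any of the 6 libraries. Of 8 tested peptide-degrading enzymes Ace, the angiotensin-converting enzyme, was lower (-0.27, adjusted p = 0.0139), a call lost without S87L replicate 1 or 2.

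For each of the 5 called precursors, the protein-coding genes with the nearest profile over the 6 cord libraries were sought among 11909 genes, by root mean square difference of centred log2 values. Nearest to Vip were Cers4, Plxna3 and Zkscan2, with differences of 0.0421 to 0.0434. Tmem181a, Col6a1 and Nol4l lay nearest to Npy (0.0226 to 0.0277), and Pllp, Dcxr and Cacna1g nearest to Penk (0.0243 to 0.0306). Slc25a27, Pcgf6 and Mest lay nearest to Pdyn (0.0123 to 0.0267), and Setd6, Cdk10 and Rps6kl1 nearest to Cck (0.0278 to 0.0305). No precursor was among the 3 nearest genes of another. With 3 places filled from 11909 genes, that does not show that the precursors varied apart.

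In MEF, 2 of the 10 precursors passed the filter on low values, Penk and Npy, both of them above it in each genotype. Penk was at 10.6 and 10.4 FPKM in the S87L libraries, against 22.2, 22.0 and 23.6 FPKM in the WT libraries. The groups stood far apart, on 196 to 239 reads per S87L library and 489 to 555 per WT library. The log2 fold change was -1.07 (SE 0.05, 95% interval -1.18 to -0.95, limma adjusted p = 3.01e-04). The call held without each of the 5 libraries (adjusted p = 0.00293 to 0.00406). Across 13773 genes tested in MEF, 6.32% were called lower, 4.91% higher and 11.2% in either direction.

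Npy in MEF was at 1.92 and 2.15 FPKM in S87L, against 4.14, 2.59 and 3.44 FPKM in WT, on 14 to 32 reads a library. The values did not overlap, as held with S87L lower for 25% of all genes tested in MEF. The log2 fold change of -0.60 (SE 0.17, limma adjusted p = 0.0813) was not called, and without WT replicate 2, the lowest WT library, the adjusted p was 0.0283.

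Cck and Tac1 had a few reads in every MEF library and lay below the filter. Cck was at 0.611 and 0.601 FPKM in S87L MEF, against 0.281, 0.450 and 0.533 FPKM in WT MEF, on 5 to 11 reads. Tac1 was at 0.362 and 0.436 FPKM in S87L MEF, against 0.302, 0.237 and 0.184 FPKM in WT MEF, on 9 to 17 reads. Both were higher in each S87L library than in any WT library, as held for 20.8% of genes tested in MEF, and the counting intervals of the read ratios, 0.746 to 2.73 for Cck and 0.994 to 2.73 for Tac1, included 1. Gal and Pdyn were listed at 0 in all 5 MEF libraries, which at 3 reads over the group allows up to 0.151 FPKM of Gal in S87L and 0.0914 in WT, and up to 0.0411 FPKM of Pdyn in S87L and 0.0249 in WT. Sst had no read in S87L MEF and 1 read in each WT library, Grp none in S87L and 2 in 1 WT library. Vip had 1 and 5 reads in S87L MEF, against 0, 2 and 0 in WT MEF, and Calca 0 and 1 in S87L, against 1, 1 and 5 in WT.

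**Figure D4:**
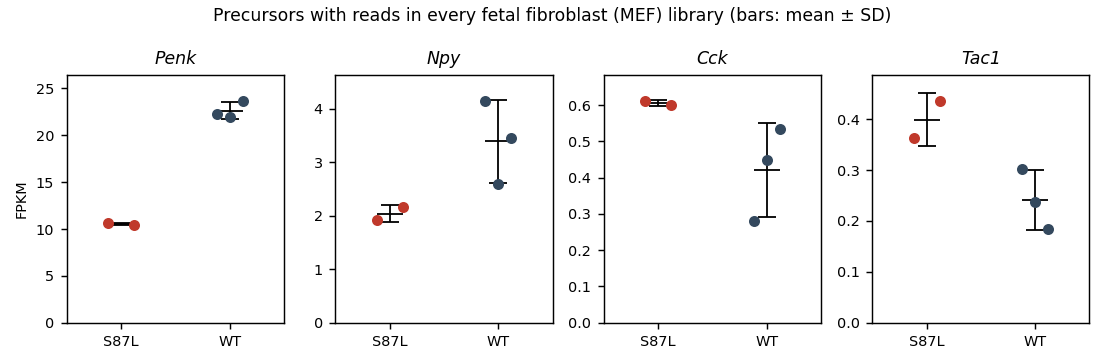
FPKM of the 4 precursors with reads in every MEF library, with S87L (2 libraries) left of WT (3 libraries); points are libraries and bars the mean ± SD. Penk lies at 10.4 to 10.6 FPKM in S87L and at 22.0 to 23.6 FPKM in WT, while Cck and Tac1 reach at most 0.611 FPKM.

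Across all genes tested in MEF, 11.2% were called, 6.32% lower and 4.91% higher, and the counts below stand beside those shares. Among the same related lists in MEF, 2 of 9 tested processing enzymes were called, both lower. The convertase Pcsk6 averaged 6.10 ± 0.22 FPKM in S87L (n = 2) and 9.19 ± 0.44 FPKM in WT (n = 3; log2 fold change -0.55, limma adjusted p = 0.00363), and its call held without each library. Pcsk5 was at -0.49 (adjusted p = 0.0393), lost without any of the 5 libraries. Of 7 tested receptors, the gastrin-releasing peptide receptor Grpr was called higher (0.67, limma adjusted p = 0.04995). It averaged 0.880 FPKM in S87L (n = 2) and 0.373 FPKM in WT (n = 3). Its WT mean lay below the filter of 0.5 FPKM, so Grpr entered the test through its S87L level and its call carries no weight. That call was lost without S87L replicate 1 or any of the 3 WT libraries, and without S87L replicate 2 Grpr fell below the filter. Also called higher were the peptidase Tpp2 (0.35, adjusted p = 0.0148), the vesicle protein Ptprn (0.27, adjusted p = 0.0496) and the pan-neuronal genes Stmn2 (0.34, adjusted p = 0.0138) and Tubb3 (0.28, adjusted p = 0.0341). Each of these 4 calls was lost without some of the libraries, at adjusted p up to 0.0593 for Tpp2, 0.169 for Ptprn, 0.0630 for Stmn2 and 0.114 for Tubb3. Among listed neuronal markers, the dorsal horn gene Lmx1b was lower at -0.49 (adjusted p = 0.0137) and the motor neuron gene Chodl at -0.68 (adjusted p = 0.0216), also lost without some libraries. Fibroblast genes moved beside Penk, with 5 of 11 tested lower, none higher and a median log2 fold change of -0.28. The median over all genes tested in MEF was -0.01, and the part of the fibroblast genes in the Penk result was not tested.

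The genotype effect on Penk differed between tissues. Its fall was smaller in cord, by 0.73 on the log2 scale (cord minus MEF, SE 0.07, limma interaction adjusted p = 7.43e-05), in a test that called 13.1% of 15811 genes, 6.98% higher and 6.14% lower. Over all genes that test called 1104 higher and 971 lower, or 1485 higher and 727 lower under median ratio scaling, and Penk was called under both. Npy differed by 0.26 (SE 0.18, 95% interval -0.13 to 0.65, adjusted p = 0.376), which does not show equal effects. In WT animals, Penk was 1.93 (SE 0.04) and Npy 2.69 (SE 0.12) higher on the log2 scale in cord than in MEF, in a contrast that called 88.3% of genes, 48.1% higher and 40.3% lower in cord. The median over all genes of that contrast was 0.13, or -0.14 after quantile normalization, and the Penk value stayed between 1.86 and 1.96 over 8 other settings. WT Penk averaged 87.8 ± 4.6 FPKM in cord and 22.6 ± 0.9 FPKM in MEF (SD, n = 3 each).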

How the data were processed

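The authors deposited FPKM values per Ensembl gene for 11 libraries. Libraries came from TRIzol total RNA with a directional kit, per the labels' protocols. HTSeq 0.11.3, HISAT2 2.2.1, Trimmomatic 0.39 and Picard 2.25.5 were used with GRCm38, per the submitters' processing notes. Their settings, including strand in counting, are not stated there. Penk overlaps an antisense gene of 12 reads over S87L cord and 10 over WT cord, and Grp overlaps one of 1 read and 0 reads.

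Symbols came from GENCODE on GRCm38 (55227 identifiers matched, 260 did not). The deposited FPKM values moved in steps of 1 read: within 0.05 of a whole number, 98.51% to 98.6% of values per library came out whole. Replicates differed beyond counting noise (chi-square per degree of freedom 1.28 to 5.19), so each library counted as 1 sample.

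The fits used limma 3.58.1 (R 4.3.3; trend, robust), separately by tissue, on log2(FPKM + 0.5), over all genes with a mean of at least 0.5 FPKM, and adjusted by Benjamini-Hochberg. Calls had an adjusted p under 0.05. The difference between tissues was the interaction in a fit of all 11 libraries. The code was tested on simulated data. Intervals on reads and limits from 3 reads cover counting error only. Text names all 10 precursors, up to 4 genes of smallest p per list, called receptors and processing enzymes, and the 3 nearest profiles of called precursors. Named outside that rule are Oprm1, Cpe, the Hox genes at 0, and Pvalb and Ptgds for their share of a sum. The precursors and lists were chosen with earlier results of these data known. Alternatives were pseudocounts of 0.1 and 1, other filters, quantile and median ratio scaling, a replicate block, each library left out and, chosen after seeing the data, voom on the recovered reads.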

Additional observations from a re-analysis of the deposited data

Results flagged for a closer look

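The limma interaction term, given as cord minus MEF on the log2 scale, passed the threshold for 4 precursors, of which Penk alone had enough reads in MEF to be tested there. For Penk the difference was 0.7336 (adjusted p = 7.43e-05), with a fall in both tissues and the larger one in MEF, and the call held without each of the 11 libraries. The other 3 entered the joint fit through their cord level, lay below the filter in MEF, and do not show that the genotype effect differs between tissues. Pdyn, at -0.3326 (adjusted p = 0.0279), had 0 in all MEF libraries, so its value is the cord fold by construction. Vip was at -0.7171 (adjusted p = 0.00658) beside 6 reads in S87L MEF and 2 reads in WT MEF, and ran from -2.62 to -0.52 over 7 other settings. Cck was at -0.5578 (adjusted p = 0.0322) beside 20 reads in S87L MEF and 23 in WT MEF, and was called in 4 of 8 other settings and without 5 of the 11 libraries.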

How the results depend on the processing

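Leaving out a library gave 838 to 1637 called genes in cord, 565 to 1753 in MEF and 1373 to 2261 for the tissue difference, with 4 to 5, 1 to 2 and 2 to 5 precursors called. In MEF, 788 genes were called with no filter, 2784 with voom on recovered reads and 182 with the replicate block. The tissue difference called 2 precursors with voom, and Vip was not in that test with a filter of 1 FPKM. Direction changed in cord for Sst without WT replicate 1 (range over left-out libraries -0.1419 to 0.005843) and for Calca without WT replicate 2 (-0.01854 to 0.1012), and the cause was not tested. Leaving out an S87L MEF library left 1, assumed to vary like the other groups. Whether replicate numbers pair the libraries could not be decided. Correlations of same-numbered deviations in cord were 0.142, -0.08 and 0.176, beside -0.247 to 0.147 for different numbers. In MEF the same-numbered values were -0.133 and -0.083, but the deviations of 2 S87L libraries mirror each other by construction. The replicate block gave 4 precursors and 1663 genes in cord (Cck adjusted p = 0.0628), Penk in MEF and 2 precursors for the tissue difference. Planned count models were not run, since the deposited values are FPKM, and voom on the recovered reads was run instead. Depth limits Vip in cord and the precursors under 20 reads a library in MEF.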
